A study of Mus musculus with 21 samples.

Results

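The H2- genes are the mouse major histocompatibility complex (MHC), and the members described here are all genes of the deposited table whose name starts with H2- and that lie on chromosome 17. The rule gave 41 of 32643 genes, of which 28 are class I genes, 12 are class II genes and 1, H2-Ke6, is another gene that carries the prefix. They lie between positions 33974831 and 37483552 of chromosome 17 in mm10, the build named in the submitters' processing notes. The members were selected on name and position, and the group itself was chosen by earlier values of these data: the counts of H2-Q10, H2-Eb1 and genes near them differed between knockout and wild-type animals given vehicle or averaged over treatments. In those comparisons no test of a single member is given, and counts of called genes stand beside the share over all genes with nothing read from them.

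The libraries were made from testis RNA of 21 mice aged 10 days after birth. The strain is labelled as an even mix of 129sv and C57Bl6 in every group. Wild-type (WT) animals and FXRα-/- knockouts (KO), which lack the bile acid receptor encoded by Nr1h4, had received vehicle, bisphenol A (BPA, a plastics monomer) or stigmasterol (a plant sterol). Each WT group held 4 animals and each KO group held 3, and the labels name each library by an animal number (T66 and so on; animal T10 is not to be confused with the gene H2-T10). The sources used here give no doses, litters or H2 alleles, and the testis RNA of each animal is a mixture of all its cell types. Where a gene's level differs, fewer cells of a type and less RNA per cell cannot be told apart.

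Class I heavy chains pair with β2-microglobulin (B2m) and carry peptides from inside the cell to its surface, where CD8+ T cells read them. The classical heavy chains H2-K1 and H2-D1 are made in most tissues, and the Q, T and M genes encode non-classical relatives. Class II molecules are pairs of an alpha and a beta chain, made mainly by macrophages, dendritic cells and B cells, and they show peptides from outside the cell to CD4+ T cells. The seminiferous epithelium is known for low MHC expression, and most testicular class II is found on interstitial macrophages. The H2 complex differs between mouse strains in sequence and in gene content, and its genes are inherited together as blocks.

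Upstream sequences of 3 class I genes are shown because the genes behaved differently in these libraries. H2-K1 did not separate the genotypes, H2-Q7 overlapped between them, and H2-Q10, the next Q gene after it, ranged widely among KO animals. Each is the 250 bases before the RefSeq transcript start in GRCm38.p6, 5′ to 3′ on the gene's strand. Capitals mark matches, on either strand, to 4 motifs: CCAAT (reverse complement ATTGG, the CCAAT box), GGATTCC (the core of the class I enhancer A site bound by NF-κB factors), TTTCNNTTC (an interferon response element) and TGACGC (a cyclic AMP response-like element). H2-K1 lies at chr17:34000334-34000583 on the minus strand, H2-Q7 at chr17:35438905-35439154 and H2-Q10 at chr17:35469839-35470088, both on the plus strand.

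H2-K1: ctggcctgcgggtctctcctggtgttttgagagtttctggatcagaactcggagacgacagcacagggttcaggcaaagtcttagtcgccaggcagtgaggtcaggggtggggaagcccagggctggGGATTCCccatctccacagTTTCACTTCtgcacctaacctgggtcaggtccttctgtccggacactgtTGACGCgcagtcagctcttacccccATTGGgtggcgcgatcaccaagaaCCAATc

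H2-Q7: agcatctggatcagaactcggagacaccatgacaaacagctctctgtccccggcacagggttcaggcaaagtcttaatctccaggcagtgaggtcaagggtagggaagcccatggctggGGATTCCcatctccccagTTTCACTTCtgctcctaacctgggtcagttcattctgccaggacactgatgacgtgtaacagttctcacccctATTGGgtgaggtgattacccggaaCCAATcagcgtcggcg

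H2-Q10: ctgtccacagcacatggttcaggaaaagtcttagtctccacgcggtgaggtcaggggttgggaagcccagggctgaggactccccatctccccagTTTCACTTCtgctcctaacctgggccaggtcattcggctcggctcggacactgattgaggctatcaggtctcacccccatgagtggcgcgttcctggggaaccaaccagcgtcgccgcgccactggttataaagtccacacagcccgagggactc

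The H2-K1 window held 2 CCAAT matches and 1 match to each of the other 3 motifs. The window of another RefSeq start of H2-K1 held 1 CCAAT match and the same other matches. The H2-Q7 window held 2 CCAAT matches, 1 GGATTCC and 1 TTTCNNTTC. It also contains TGACGT, which differs from TGACGC in the last base and was not counted. The H2-Q10 window held 1 TTTCNNTTC match and 0 of the other 3 motifs. Of the 29 members with a RefSeq window, 26 had a CCAAT match, 5 a GGATTCC, 8 a TTTCNNTTC and 3 a TGACGC. Over all 32851 windows of this length, 33.8% held CCAAT, 3.17% GGATTCC, 6.31% TTTCNNTTC and 6.12% TGACGC. These matches describe letters in the reference sequence, and no binding was measured.

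Levels below are counts-per-million (CPM) after TMM scaling of the authors' raw counts, and a value for 1 gene is compared only with the same gene in other libraries. Comparisons between genes use the authors' normalized signal per kb of gene. A gene was called changed at an adjusted p under 0.05 from edgeR's quasi-likelihood test with Benjamini-Hochberg adjustment over the 20254 genes that had enough reads. Of the 41 members, 26 passed that filter (19 class I, 6 class II and H2-Ke6), and 20 reached a mean of 1 CPM in at least 1 group. The libraries held 35459523 to 61498855 counted reads. Reads on Nr1h4 were few and its level overlapped between genotypes: WT libraries held 0.241 to 0.868 CPM and the KO libraries 0.172 to 0.492 CPM. The labels do not say which part of the gene was deleted.

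Germ cell, Sertoli and Leydig markers were present in all 21 libraries. The 4 epididymal epithelium markers Cdh16, Epcam, Pax8 and Krt8 together reached 46.9 to 117.7 CPM in the WT libraries and 93.1 to 457 CPM in those of KO animals. By KO animal the sum was 188 CPM in T1, 93.1 in T90 and 130 in T110 (vehicle), 93.9 in T25, 103 in T83 and 135 in T117 (BPA), and 242 in T10, 93.2 in T15 and 457 in T93 (stigmasterol). Their part in the genotype differences given here was not tested beyond a fit without the libraries that had 10 CPM or more of Cdh16. That fit left 1 KO animal per group, T90, T25 and T15, each assumed to vary like the other groups.

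H2-Q10 (ENSMUSG00000067235, chromosome 17, 35470089 to 35474563) encodes a secreted class I protein known as a product of the liver, and it was among the most abundant members of WT testis. Under vehicle the WT mice had 81.9 (T66), 89.6 (T71), 46.3 (T79) and 70.3 CPM (T81). WT animals given BPA (T60, T75, T61, T74) had 70.2, 61.8, 79.8 and 53.7 CPM, and WT animals given stigmasterol (T78, T98, T118, T119) had 49.6, 82.4, 56.8 and 62.9 CPM. The 3 WT groups overlapped. Among the knockouts, vehicle mice carried 2.09 (T1), 1.81 (T90) and 1.67 CPM (T110), BPA mice 67.8 (T25), 77.9 (T83) and 64.9 CPM (T117), and stigmasterol mice 2.16 (T10), 34.7 (T15) and 40.8 CPM (T93). The low values rested on 66 to 112 reads, so H2-Q10 was detected in every library: for T110 the 95% Wilson interval, which covers counting error only, was 1.31 to 2.13 CPM.

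So 4 KO animals had 1.67 to 2.16 CPM of H2-Q10, 3 lay within the WT range, and T15 and T93 lay in between, with the KO stigmasterol group holding both low and intermediate animals. The highest KO library exceeded the lowest 46.6-fold, against 1.94-fold among WT libraries. Tested genes with a mean of at least 1 CPM in a group numbered 16207. Of these, 84 (0.518%) had reads in every KO library and a KO range at least this wide. Genes without a read in some KO library were left out of the 84 but kept in the 16207. The low H2-Q10 values of the KO vehicle animals led to the choice of the members, so nothing is read from the range or this share. Group means were 72.0 ± 18.9 CPM (SD, n = 4) in WT vehicle, 66.4 ± 11.2 (SD, n = 4) in WT BPA and 62.9 ± 14.1 (SD, n = 4) in WT stigmasterol. The KO means were 1.86 ± 0.212 (SD, n = 3), 70.2 ± 6.81 (SD, n = 3) and 25.9 ± 20.8 CPM (SD, n = 3) for vehicle, BPA and stigmasterol. The fitted log2 difference of BPA from vehicle was 5.24 in KO animals, and the authors' deposited table gives the same value for that comparison, 5.24. Since all 3 KO vehicle animals were low and litters are not known, treatment and other differences between these animals cannot be told apart.

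In WT animals H2-Q10 did not pass the test for BPA (log2 fold change -0.12, edgeR adjusted p = 0.92) or stigmasterol (-0.19, adjusted p = 0.94). WT BPA animal T61 carried liver transcripts, with albumin (Alb) at 578 CPM, and T75 had 58.6 CPM of Alb, and their H2-Q10 was 79.8 and 61.8 CPM, inside the range of the other WT animals.

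H2-D1 (ENSMUSG00000073411, 35262730 to 35267499), a classical heavy chain, went the other way. The WT libraries had 22.6 to 62.0 CPM with a median of 32.7. Its KO levels under vehicle were 134 (T1), 84.2 (T90) and 81 CPM (T110), under BPA 50.1 (T25), 38.5 (T83) and 39.9 CPM (T117), and under stigmasterol 114 (T10), 71.9 (T15) and 70.5 CPM (T93). The 6 vehicle and stigmasterol KO animals lay above every WT animal, and the 3 BPA animals lay within the WT range. These are the same 6 animals in which H2-Q10 was below the WT range. Under stigmasterol, the log2 difference of KO from WT was 1.0 ± 0.304 (SE) with an edgeR adjusted p of 0.0521, just outside the threshold. It was called without WT animal T98 (adjusted p = 0.0256) and by DESeq2 (adjusted p = 0.0156). It was 0.74 without KO animal T10 (edgeR adjusted p = 0.235) and 0.75 without the libraries that had 10 CPM or more of Cdh16 (0.723), and the adjusted p was 0.112 without WT animal T78, 0.142 without T119 and 0.13 with the 2 stigmasterol groups fitted alone.

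H2-K1 (ENSMUSG00000061232, 33996017 to 34000333), the other classical heavy chain, did not separate the genotypes. Its WT libraries ranged from 41.0 to 205 CPM around a median of 73.1, and all 9 KO libraries, at 57.8 to 170 CPM, lay inside that range. Per kb of gene, H2-K1 led the members in WT vehicle testis with a normalized signal of 5212 ± 3281 (SD, n = 4), followed by H2-D1 with 3079 ± 1287 and H2-Q10 with 1576 ± 421. The SDs of H2-K1 and H2-D1 overlap, but both genes were measured in the same 4 animals. The overlap therefore does not settle the order of this pair within an animal, which was not tested. In KO vehicle testis H2-D1 came first at 7709 ± 2283 (SD, n = 3) and H2-K1 had 3417 ± 950, while H2-Q10 stood at 40.4 ± 4.54.

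**Figure D1:**
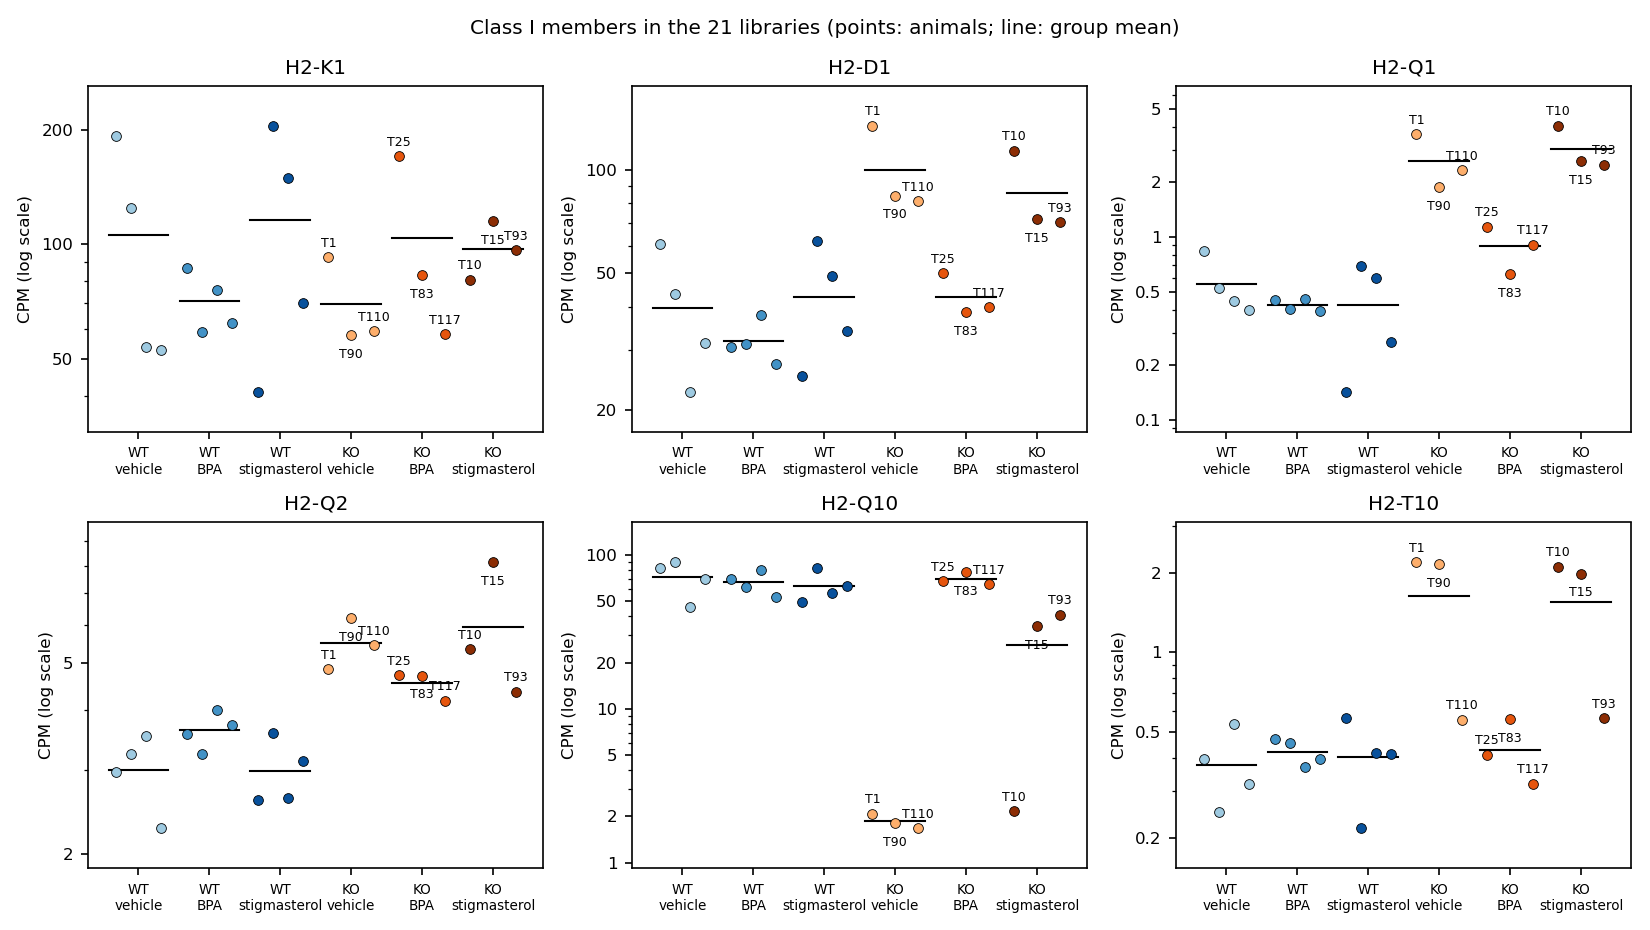
Levels of 6 class I members in the 21 libraries (CPM, log axis that differs between panels; points are animals, lines are group means). H2-K1 overlaps between genotypes, H2-D1 is above the WT range in the 6 KO animals given vehicle or stigmasterol, and H2-Q10 is low in KO vehicle animals and in T10.

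Among the low-level class I genes, H2-Q1 and the pseudogene H2-K2 were higher in nearly all KO animals. WT libraries had 0.142 to 0.834 CPM of H2-Q1 with a median of 0.448. In the knockouts it was 3.65 (T1), 1.87 (T90) and 2.33 CPM (T110) under vehicle, 1.14 (T25), 0.626 (T83) and 0.91 CPM (T117) under BPA, and 4.06 (T10), 2.6 (T15) and 2.5 CPM (T93) under stigmasterol. Only T83 was within the WT range, and the BPA group was the lowest of the 3 KO groups. H2-K2 had 0.122 to 0.43 CPM in WT, and in the same order of KO animals 1.33, 0.967 and 0.887 CPM, 0.914, 0.38 and 0.467 CPM, and 1.02, 0.927 and 0.547 CPM. T83 again was the KO animal inside the WT range.

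H2-Q2, a Q-region class I gene, was above all 12 WT libraries in all 9 KO animals. WT libraries had 2.26 to 3.99 CPM, while the knockouts had 4.86 (T1), 6.21 (T90) and 5.45 CPM (T110) under vehicle, 4.73 (T25), 4.72 (T83) and 4.18 CPM (T117) under BPA, and 5.36 (T10), 8.12 (T15) and 4.36 CPM (T93) under stigmasterol. H2-Q4 was above the WT maximum of 8.18 CPM in 5 of 9 KO animals, with at most 10.52 CPM. H2-Q6 and H2-Q7 overlapped between genotypes, with KO levels of 2.63 to 4.72 and 4.42 to 8.50 CPM against 2.05 to 4.34 and 4.27 to 8.49 CPM in WT.

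In the T region, H2-T10 and H2-T22 split the KO animals at another line. H2-T22 and its close copy H2-T10 encode ligands of γδ T cells. WT libraries had 0.216 to 0.567 CPM of H2-T10, and KO animals T1, T90, T10 and T15 had 2.19, 2.16, 2.11 and 1.99 CPM. The other 5 KO animals, T110, T25, T83, T117 and T93, had 0.558, 0.411, 0.559, 0.32 and 0.564 CPM, all within the WT range. H2-T22 was 7.16 to 13.9 CPM in WT, and it was 4.34, 4.56, 4.92 and 5.19 CPM in T1, T90, T10 and T15. The other 5 had 9.07 to 11 CPM. Thus the 4 animals above the WT range for H2-T10 were the 4 below it for H2-T22, and KO vehicle animal T110 and KO stigmasterol animal T93, outside it for H2-D1 and H2-Q10, were inside it for both.

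These genes share sequence. Of the 50-base words in H2-T22 transcripts of GENCODE vM21, 31.2% also occur in H2-T10, and 14% of those of H2-Q10 occur in H2-Q7. The sources used here do not say how reads that match several genes were counted. The sum of H2-T10 and H2-T22 was 6.53, 6.72, 7.04 and 7.17 CPM in T1, T90, T10 and T15, below the WT range of 7.38 to 14.2 CPM. H2-Q7 and H2-Q10 together came to 6.22 to 7.90 CPM in T1, T90, T110 and T10, against 51.7 to 95.4 CPM in WT.

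**Figure D2:**
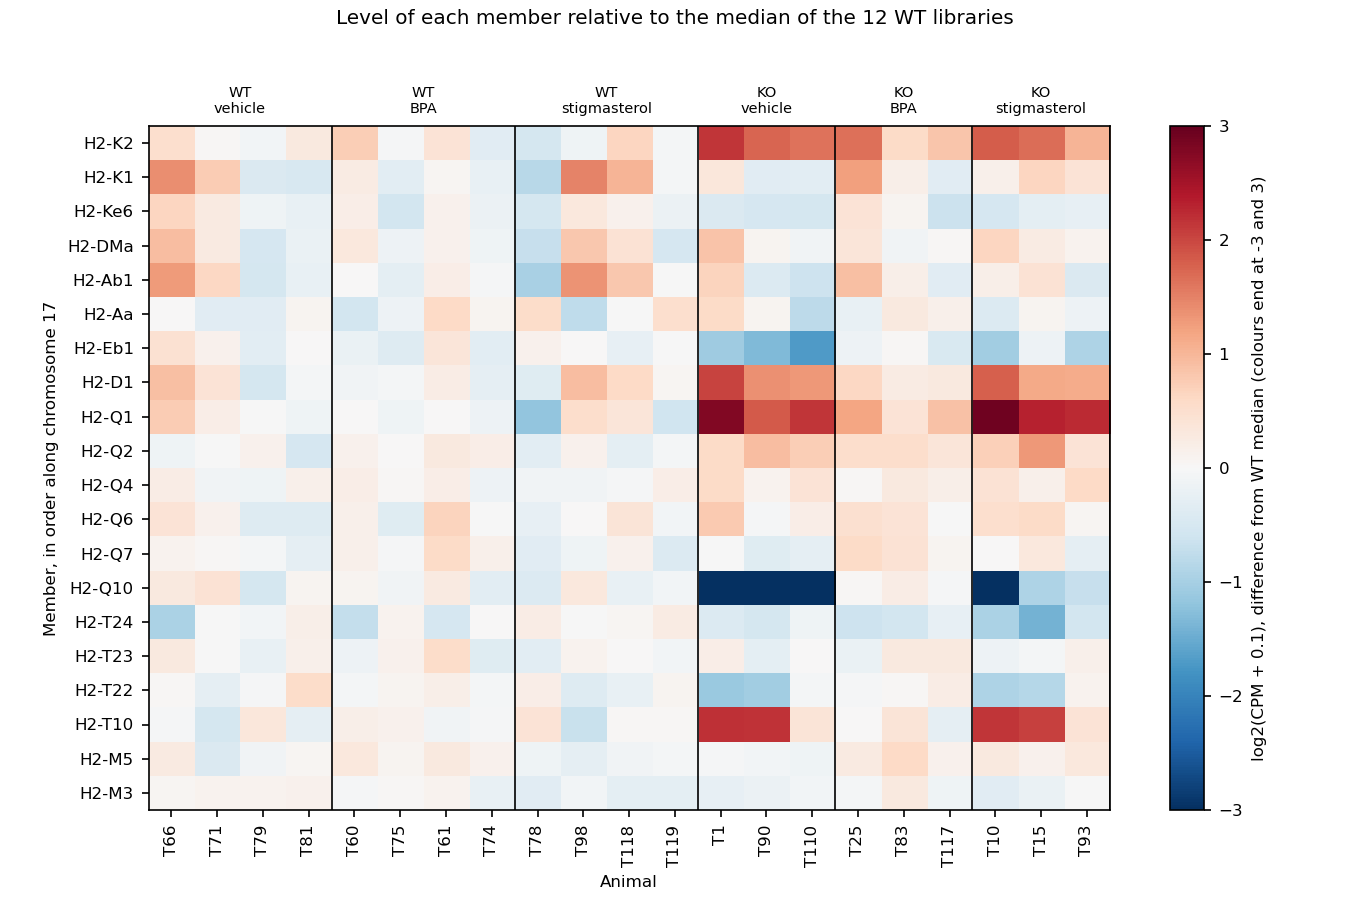
Level of each of the 20 members with at least 1 CPM, in chromosome order from top to bottom, relative to the median of the 12 WT libraries (log2 of CPM plus 0.1; colours end at -3 and 3). KO animals in vehicle and stigmasterol columns show high H2-K2, H2-D1 and H2-Q1, and H2-T10 is high in T1, T90, T10 and T15.

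H2-T23, which encodes Qa-1, a ligand of natural killer cell receptors, was 3.92 to 7.49 CPM in WT libraries, against 4.11 to 6.25 CPM in the knockouts, with no KO animal outside. H2-T24 was 2.19 to 5.12 CPM in WT and lay below that in T10, narrowly, and T15, at 2.18 and 1.55 CPM. H2-M3, which presents formylated peptides, was 4.17 to 5.86 CPM in WT libraries, against 4.20 to 6.57 CPM in the knockouts. H2-M5 was 1.5 to 2.58 CPM in WT libraries, against 1.88 to 3.13 CPM in the knockouts. H2-Bl stood at 0.0670 to 0.303 CPM in WT and above that in 4 KO animals, with at most 0.435 CPM.

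Class II transcripts were scarce beside those of H2-K1, H2-D1 and H2-Q10. Per kb, H2-Ab1, the beta chain of the I-A molecule, had a normalized signal of 309 ± 181 (SD, n = 4) in WT vehicle testis, and H2-Aa, its alpha chain, had 73.6 ± 12. The class I genes H2-T22 and H2-M3 had 256 ± 63.0 and 174 ± 3.09 there, so H2-Ab1 was not low beside them. H2-Ab1 was 1.58 to 8.29 CPM in WT libraries, against 2.03 to 6.10 CPM in the knockouts, and no KO animal lay outside the WT range. H2-Aa was 0.779 to 2.17 CPM in WT libraries, against 0.760 to 2.13 CPM in the knockouts, with T110 just below the lowest WT animal. H2-DMa, which helps load peptides, was 1.46 to 4.67 CPM in WT libraries, against 2.23 to 4.44 CPM in the knockouts.

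H2-Ke6, a steroid dehydrogenase gene that is no MHC molecule, was 1.26 to 3.05 CPM in WT libraries, against 1.18 to 2.58 CPM in the knockouts, and it shares 70.5% of its 50-base words with the overlapping Gm20427. The 6 members that passed the filter without reaching a mean of 1 CPM were H2-DMb1, H2-DMb2, H2-Q5, H2-Bl, H2-M10.2 and H2-M6-ps, at 0.0670 to 1.17 CPM. The 15 that did not pass had 0 to 0.545 CPM and were not tested in the full fit of all libraries. They were H2-Pa, H2-Pb, H2-Oa, H2-Ob, H2-Eb2, H2-Ea-ps, H2-Q3, H2-T3, H2-M2, H2-M9 and the M10 genes other than H2-M10.2.

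H2-Eb1 (ENSMUSG00000060586, 34305877 to 34316199), the beta chain of the I-E molecule, was low in part of the KO animals. WT libraries had 1.48 to 2.72 CPM with a median of 1.97. Vehicle knockouts had 0.884 (T1), 0.725 (T90) and 0.532 CPM (T110), BPA knockouts 1.76 (T25), 2.01 (T83) and 1.4 CPM (T117), and stigmasterol knockouts 0.908 (T10), 1.77 (T15) and 0.992 CPM (T93). The 6 KO animals T1, T90, T110, T117, T10 and T93 were below all WT animals, T117 only narrowly, and T15 was inside the WT range although its H2-D1, H2-Q10, H2-T22 and H2-T10 were outside. No 50-base word of H2-Eb1 occurs in another annotated gene. H2-DMb2, a chain of the peptide-loading H2-M molecule, was 0.236 to 0.548 CPM in WT. Its KO levels were 0.904 (T1), 0.435 (T90) and 0.355 CPM (T110) under vehicle, 0.251 (T25), 0.514 (T83) and 0.615 CPM (T117) under BPA, and 1.09 (T10), 0.508 (T15) and 0.992 CPM (T93) under stigmasterol. T1, T117, T10 and T93 were above the WT range and the other 5 inside it.

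**Figure D3:**
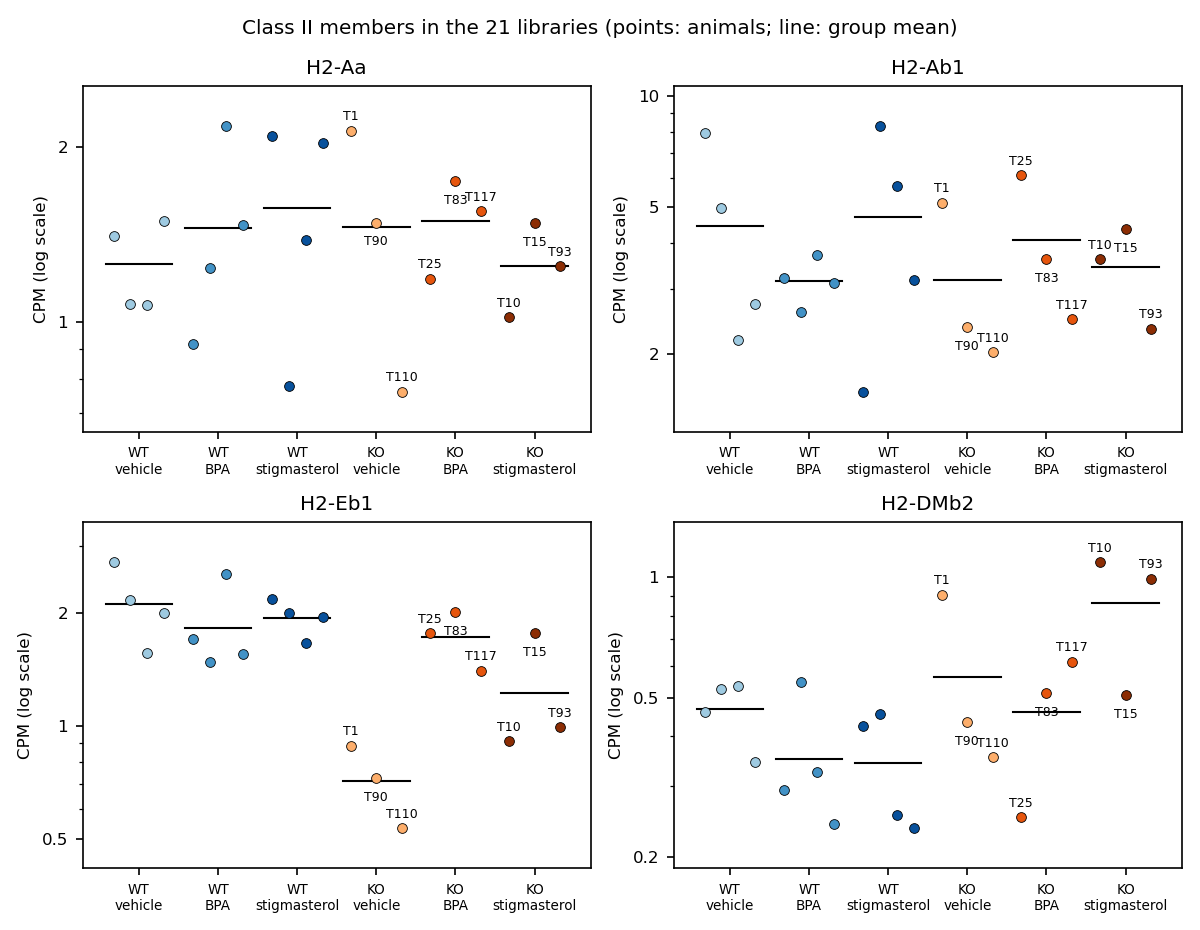
Levels of 4 class II members in the 21 libraries (CPM, log axis that differs between panels; points are animals, lines are group means). H2-Aa and H2-Ab1 overlap between genotypes, while H2-Eb1 is below the WT range in the 3 KO vehicle animals.

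Read along the chromosome, the KO animals did not move as 1 block. In the order H2-K2, H2-Eb1, H2-D1, H2-Q1, H2-Q10, H2-T22 and H2-T10, animals T1, T90 and T10 were outside the WT range at all 7 genes. T83 was inside it at all 7, although above it at H2-Q2. T110 and T93 were outside at H2-K2, H2-Eb1, H2-D1, H2-Q1 and H2-Q10 and inside at H2-T22 and H2-T10. T15 was inside at H2-Eb1 alone, T25 was outside at H2-K2 and H2-Q1, and T117 at H2-K2, H2-Eb1 and H2-Q1. Each of the 7 genes left the WT range in several KO animals. Other members between them, such as H2-K1, H2-Ab1 and H2-DMa, were inside it in every KO animal. The counts do not type alleles, and the part of inherited H2 haplotypes, or of reads lost where an animal's sequence differs from the reference, was not tested.

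**Figure D4:**
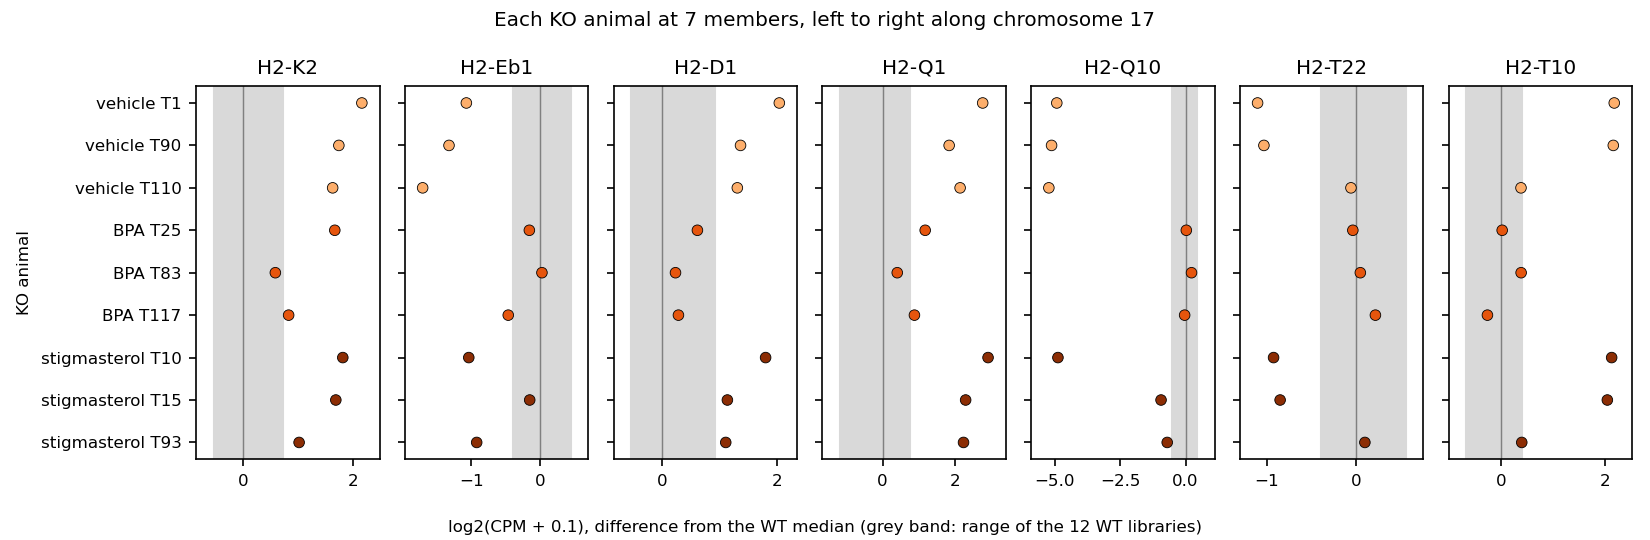
Difference of each KO animal from the WT median at 7 members (log2 of CPM plus 0.1; the scale differs between panels; grey bands are the range of the 12 WT libraries). T110 and T93 lie outside the band at H2-D1 and H2-Q10 and inside it at H2-T22 and H2-T10.

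Of the 25 tested members other than H2-Q10, 10 (40%) had at least 4 of the 9 KO libraries outside the range of the 12 WT libraries, in either direction. These values include the KO vehicle animals and H2-Eb1, which led to the choice of the members, so the share is a description and nothing is read from it. The share over all 20254 tested genes was 16.1%, that of the 130 other tested genes between the outermost members was 26.2%, and that of the rest of chromosome 17 was 24.4%. By animal, 12 of the 26 members were outside in T1, 13 in T10 and 5 each in T25 and T83, against 15.2% to 23.7% of all tested genes. These counts by animal include H2-Q10 and H2-Eb1. The 3 BPA animals had 19.2% to 23.1% of the members outside, near the 16.2% to 21.5% that all genes had in the same animals. The vehicle and stigmasterol animals had 34.6% to 50%. The KO vehicle animals and the averaged comparison led to the choice of the members, so nothing is read from these shares by animal.

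Likeness to H2-Q10 over the 9 KO libraries is given as Pearson's r of log2(CPM + 0.1), a description over libraries that differ in treatment and depth. Among members, H2-Eb1 (r = 0.87) and H2-D1 (r = -0.85) reached 0.8 in size, 2 of 25. Of the 130 neighbouring genes 21 did (16.2%), against 2.34% of the rest of chromosome 17 and 1.47% of genes on other chromosomes. H2-Q10, genes near it and the KO vehicle animals led to the choice of the members, so nothing is read from these shares. The 10 genes most like H2-Q10 lay mostly elsewhere. They were led by Zbtb37 on chromosome 1 (r = -0.95), and they held 1110038B12Rik (r = 0.93) and Stk19-ps1 (r = -0.93) from the H2 region.

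Levels of 3 neighbours of the class I genes are given by animal. The lymphotoxin gene Ltb was 0.670 to 1.38 CPM in WT, 4.8 (T1), 3.84 (T90) and 4.41 CPM (T110) in vehicle knockouts, 0.836 to 1.07 CPM in BPA knockouts, and 3.09 (T10), 2.14 (T15) and 2.68 CPM (T93) in stigmasterol knockouts. Aif1, a nearby gene of macrophages, stayed between 1.75 and 3.49 CPM in WT libraries and reached 5.4 (T1), 3.87 (T90) and 5.07 CPM (T110) in vehicle knockouts, while the 3 BPA knockouts had 1.94 to 2.68 CPM. The stigmasterol knockouts had 4.95 (T10), 3.2 (T15) and 3.47 CPM (T93) of Aif1, the last pair inside the WT range. The 13 other macrophage markers summed to 126 to 190 CPM in WT libraries, against 111 to 191 CPM in the knockouts, and none of them was called in any comparison. The gene C920025E04Rik, between H2-T22 and H2-T10, had at most 0.0868 CPM in WT libraries, against 1.12 to 2.27 CPM in vehicle knockouts. It was 0.0914 (T25), 0.0894 (T83) and 0.492 CPM (T117) in BPA knockouts and 2.09 (T10), 1.19 (T15) and 0.564 CPM (T93) in stigmasterol knockouts, all above the WT maximum. Of the 130 neighbours 16 were called between KO and WT under vehicle (2.92% of all tested genes), 16 under stigmasterol (7.21% of all), 0 under BPA (0.859%) and 30 on average (24 higher and 6 lower, 13.9% of all). Nothing is read from the vehicle, stigmasterol and averaged counts. Besides C920025E04Rik, the neighbours that differed most in the averaged comparison, named by that size alone, were Gm18733, Gm18734, Stk19-ps1 and Gm10499. Their highest WT library had 0.156, 0.0878, 0.108 and 0.601 CPM, in that order. The knockouts ranged from 0.0894 to 2.02 CPM for Gm18733, 0 to 0.29 for Gm18734, 0.0671 to 0.482 for Stk19-ps1 and 0.845 to 1.89 for Gm10499.

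**Figure D5:**
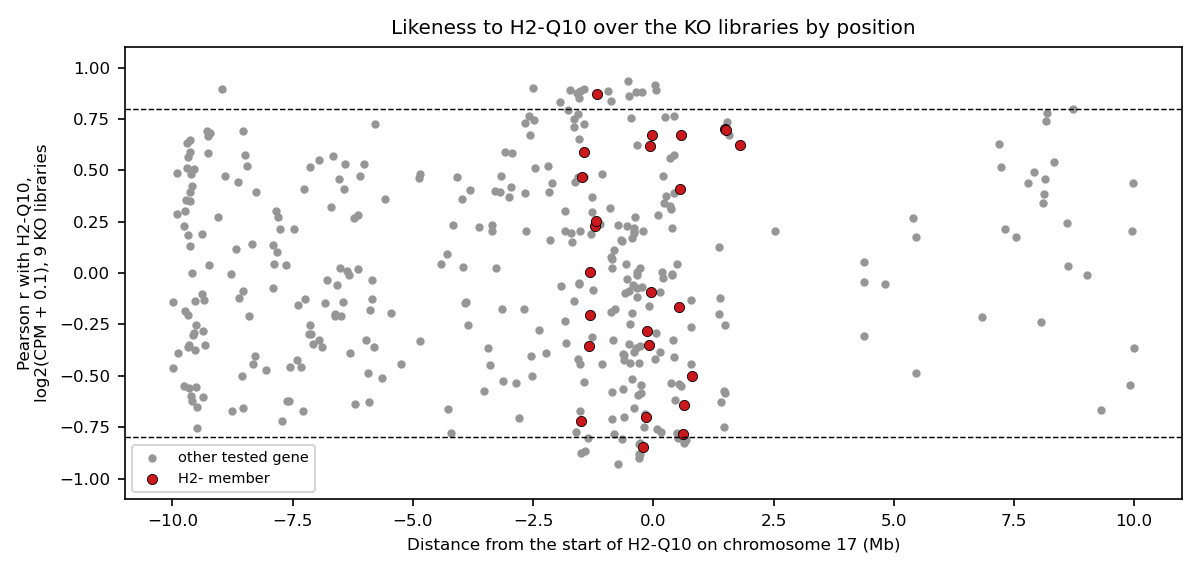
Pearson's r with H2-Q10 over the 9 KO libraries against distance from the start of H2-Q10 in Mb for the 394 tested genes within 10 Mb (red, members; grey, other genes; dashed lines at 0.8 and -0.8). Genes beyond the dashed lines gather near H2-Q10, where genes led to the choice of the members, so nothing is read from that. The members other than H2-Q10 spread from -0.85 to 0.87.

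Of the comparisons of KO with WT, the one under stigmasterol called 6 of the 25 members other than H2-Q10, where 7.21% of all tested genes were called. H2-Q1 (log2 fold change 2.82 ± 0.387 SE, edgeR adjusted p = 0.000252), H2-Q2 (1.0 ± 0.189, adjusted p = 0.00442), H2-K2 (1.81 ± 0.397, adjusted p = 0.0108), H2-T10 (1.93 ± 0.452, adjusted p = 0.015) and H2-DMb2 (1.32 ± 0.382, adjusted p = 0.0424) rose, and H2-T24 fell (-1.09 ± 0.261, adjusted p = 0.0165). The median log2 fold change of the 25 was 0.22, against 0.02 over all tested genes. The stigmasterol animals are part of the averaged comparison that led to the choice of the members. Nothing is therefore read from the count of 6 or from this median, and the adjusted p are not independent of that choice. H2-Eb1 (-0.67, adjusted p = 0.13), H2-Q4 (0.42, adjusted p = 0.08), H2-K1 (-0.25, adjusted p = 0.83), H2-Ab1 (-0.45, adjusted p = 0.67) and H2-Aa (-0.32, adjusted p = 0.66) did not pass. H2-Q10 differed by -1.28 on the log2 scale, and by -0.74 without KO animal T10, given without a test. DESeq2 called 8 of the 25, the same 6 with H2-D1 and H2-Q4.

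Single animals decided part of these calls. H2-T10 was not called without KO animal T10 (adjusted p = 0.0701) or T15 (0.0527), nor was H2-T24 without T10 (0.0574) or T15 (0.0735). H2-DMb2 was not called without WT animal T118 (0.116) or T119 (0.118), or KO animal T10 (0.153) or T93 (0.152). With T10 left out 3 members were called. Without the libraries that had 10 CPM or more of Cdh16, H2-Q2 alone was called (1.44). In that fit, with 1 KO animal a group, the log2 fold change was 2.58 for H2-Q1 (edgeR adjusted p = 0.133), 1.96 for H2-K2 (0.261), 2.28 for H2-T10 (0.0623), -1.62 for H2-T24 (0.192) and 0.55 for H2-DMb2 (0.782). With the 2 stigmasterol groups fitted alone, H2-Q1 alone was called; the sizes were 1.81 for H2-K2, 1.0 for H2-Q2, 1.92 for H2-T10, -1.09 for H2-T24 and 1.32 for H2-DMb2, near those of the full fit, and their edgeR adjusted p were 0.059 to 0.104.

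Under BPA, edgeR called 0 of the 25 members, DESeq2 called 0, and 2 had an unadjusted p under 0.05, where 0.859% of all tested genes were called. Those were H2-Q1 (1.06 ± 0.399, adjusted p = 0.408) and H2-K2 (1.05 ± 0.4, adjusted p = 0.421). H2-K2 was 0.58 without KO animal T25 and 1.91 without the libraries that had 10 CPM or more of Cdh16. Over all tested genes 8.16% had an unadjusted p under 0.05. The log2 fold change was 0.43 for H2-D1 (edgeR adjusted p = 0.849), 0.32 for H2-Q2 (0.756) and -0.08 for H2-Eb1 (0.99). H2-Q10 differed by 0.08, given without a test.

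Under vehicle, where 2.92% of all tested genes were called, 5 of 24 members other than H2-Q10 and H2-Eb1 were called, all higher in KO: H2-D1, H2-K2, H2-Q1, H2-Q2 and H2-T10. Averaged over the treatments, where 13.9% were called, 7 of 24 were higher (those 5, H2-Bl and H2-Q4) and H2-T24 was lower. The members were put forward from these comparisons, so nothing is read from their counts, and H2-Bl, with at most 0.303 CPM in WT, was near the filter on low counts. The vehicle count was 2 without WT animal T81 or KO animal T1 and 3 without KO animal T90.

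The treatments were compared within each genotype on the same vehicle animals, so the comparisons share samples. In WT animals BPA called 0 of 26 members by edgeR, with 0 by DESeq2 and 0 at an unadjusted p under 0.05, and 0% of all tested genes were called. Stigmasterol also called 0 of 26 by edgeR and 0 by DESeq2, with 1 at an unadjusted p under 0.05 (8.26% of all genes), where 0.00494% of all genes were called.

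In KO animals BPA called 0 of 25 members by edgeR, where 0.0148% of all genes were called, with 9 at an unadjusted p under 0.05 (4.31% of all genes) and 1, H2-Eb1, called by DESeq2. H2-Eb1 was among the genes chosen for their level in these vehicle animals, so nothing is read from that call or from the 9. The log2 fold change was -1.22 for H2-D1 (edgeR adjusted p = 0.819), -1.55 for H2-Q1 (0.707) and -1.93 for H2-T10 (0.651), and that of H2-Eb1, given without a test, was 1.26. The authors' deposited table lists for the same comparison -1.22 for H2-D1 (adjusted p = 0.05), -1.55 for H2-Q1 (0.01) and -1.92 for H2-T10 (0.24). The sizes were near equal in both, and the adjusted p differed. Stigmasterol in KO animals called 0 of 25 by edgeR and 0 by DESeq2, with 2 at an unadjusted p under 0.05 (3.85% of all genes) and 0% of all genes called.

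The interaction of BPA with genotype, which asks whether BPA acted differently in KO and WT, called 0 of 25 members by edgeR and 0 by DESeq2, with 6 at an unadjusted p under 0.05 (8.83% of all genes), where 0.0148% of all genes were called. That of stigmasterol called 0 by edgeR and 0 by DESeq2, with 2 at an unadjusted p under 0.05 (9.16% of all genes) and 0.00987% of all genes called. Calls of members made under vehicle or stigmasterol and not under BPA are thus not shown to differ between treatments. Of the 130 neighbouring genes, 2 were called in the BPA interaction and 2 for BPA against vehicle in KO animals. All of these were negative, where 0.0148% of all genes were called in each. Genes near the members and the KO vehicle animals led to the choice of the members, so nothing is read from these calls.

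Of 15 genes for class I peptide supply and loading, 1 was called in KO against WT under stigmasterol, where 7.21% of all tested genes were: Tapbp, the tapasin gene that lies in the same chromosomal region, was lower (-0.41 ± 0.123, edgeR adjusted p = 0.0482). B2m was 60.6 to 101 CPM in WT libraries, against 77.8 to 125 CPM in the knockouts and did not pass under stigmasterol (0.22, adjusted p = 0.54). Of 9 class II partners none was called in that comparison, and the invariant chain gene Cd74 differed by -0.20 on the log2 scale (edgeR adjusted p = 0.78). Averaged over the treatments, where 13.9% of all tested genes were called, 1 gene of each list was called. Rfxank, a regulator of class II genes, was higher (0.23, edgeR adjusted p = 0.0132). Tapbp was lower (-0.29), given without a test because genes near the members led to their choice in this comparison. The stigmasterol animals are part of it, so nothing is read from the Tapbp call under stigmasterol either. Summed dendritic and lymphoid markers were 11.3 to 17.3 CPM in WT libraries, against 13.4 to 16.8 CPM in the knockouts.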

How the data were processed

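Testis RNA of 21 mice in 6 groups had been sequenced with a kit that does not mark strand, so reads of overlapping antisense genes cannot be told apart. Per the submitters' processing notes, the tools were TopHat2 2.0.10, Bowtie2 2.1.0, Bowtie and CASAVA 1.8.2, with mm10. The sources used here give no read counter, annotation release or read length. The authors deposited raw counts per gene, which were the input of all tests here. Per the file headers they also deposited a normalized signal, which equals the count divided by 1 size factor per library, and that signal per kb of gene. The authors' table further holds log2 fold changes, p-values and adjusted p-values of 4 treatment comparisons, rounded to 2 decimals.

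The test was that of edgeR 4.0.16 under R 4.3.3 on the counts (TMM, filterByExpr with minimum count 10 and minimum total 15, 1 mean per group over all 21 libraries, quasi-likelihood test, two-sided, Benjamini-Hochberg adjustment in each of 10 contrasts). The common biological coefficient of variation was 19.2%. The pipeline was tested on simulated data. SE is the log2 fold change divided by the root of the F statistic. DESeq2 1.42.0 and the other alternatives are in the closing section. A pseudocount of 0.1 CPM was added before correlations and heat map. Each p-value takes the animals as independent, with litters unknown.

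Members named in the text are those with a mean of at least 1 CPM in a group or that were called. The members and gene lists were chosen with earlier results of these data known. Sequences are from RefSeq GRCm38.p6.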

Additional observations from a re-analysis of the deposited data

Results flagged for a closer look

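For 4 members every treated WT animal lay on one side of the WT vehicle mean and every treated KO animal on the opposite side of the KO vehicle mean. The sign pattern itself was not tested, and its share over all tested genes is not given here. It rests in part on the KO vehicle animals that led to the choice of the members, so nothing is read from the count of 4. No interaction term of these genes passed in edgeR's quasi-likelihood test. The differences below are between group means of log2(CPM + 0.1), and the interaction p is from the edgeR fit, whose own H2-T10 values were -1.93 for BPA in KO animals and -2.09 for the interaction. For H2-T10 the mean log2 difference of BPA from vehicle was 0.16 in WT and -1.53 in KO animals (interaction adjusted p = 0.54). For H2-Q2 it was 0.28 in WT and -0.27 in KO (adjusted p = 0.57), and for H2-M3 it was -0.13 in WT and 0.21 in KO (adjusted p = 0.57). H2-T24 gave 0.34 in WT and -0.61 in KO for stigmasterol against vehicle (adjusted p = 0.49). No member had a single animal set apart from its group in the 60 groups of 4 WT animals examined.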

How the results depend on the processing

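The numbers of called members were recomputed with DESeq2, with RLE size factors in place of TMM, and with no filter on low counts. They were also recomputed with only the groups compared, and with each animal or the libraries with 10 CPM or more of Cdh16 left out. Of these values 137 stayed within 1.5 times and 10 did not. Most of the 137 were counts of 0 that stayed 0, in comparisons where no member was called. Under vehicle the count of 5 became 2 with only the groups compared and 0 without the Cdh16 libraries, and ranged from 2 to 5 with 1 animal left out. Under stigmasterol 6 became 1 in each of these 2 settings and ranged from 3 to 7. The average of 8 became 4 without the Cdh16 libraries and ranged from 6 to 9. BPA against vehicle in KO animals went from 0 to 1 with DESeq2. The cause was not tested. These settings use fewer samples, and under stigmasterol the sizes with only the groups compared were near those of the full fit. Under vehicle those of H2-D1, H2-K2, H2-Q1 and H2-T10 were 1.33, 1.97, 2.23 and 2.11 with only the groups compared. Without the Cdh16 libraries they were 0.98, 1.87, 1.62 and 2.43, in the same order, against 1.33, 1.98, 2.23 and 2.12 in the full fit. Between KO and WT under BPA, the uncalled H2-T10 difference reversed to -0.03 without WT animal T61 and -0.20 without KO animal T83 (-0.20 to 0.20 over all animals left out), and H2-DMb2 to -0.18 without the Cdh16 libraries. Of the single-gene values 19 lost their call, 2 gained it, 1 moved, and 261 kept their direction and side of the threshold or, untested, moved by less than the spread between animals; sizes could change among these, as for H2-K2 under BPA (1.05, and 0.58 without KO animal T25). Members under 1 CPM rest on few reads. No paired analysis was possible because the animal numbers are not shared between groups.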

Other observations

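Among WT animals, which no genotype separates, H2-K1, H2-Ab1 and H2-DMa were high and low in the same animals. WT vehicle animal T66 and WT stigmasterol animal T98 had the highest levels: H2-K1 at 192 and 205 CPM, H2-Ab1 at 7.92 and 8.29 CPM, and H2-DMa at 4.67 and 4.29 CPM. WT stigmasterol animal T78 had the lowest of all 3, with 41.0, 1.58 and 1.46 CPM. H2-D1 was also highest in T98 and T66, at 62.0 and 60.8 CPM. H2-Aa, the partner chain of H2-Ab1, did not follow these genes. It was lowest of all WT libraries in T98, at 0.779 CPM, and had 1.40 CPM in T66 and 2.09 CPM in T78. The 6 germ cell markers summed to 1511 CPM in T66, 1667 CPM in T98 and 1133 CPM in T78, and macrophage markers to 190, 144 and 165 CPM. Their part in this was not tested.

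H2-Oa, a class II gene without enough reads to be tested in the full fit, had 1 to 7 reads (0.0216 to 0.152 CPM) in WT libraries. It had 4 to 24 (0.0894 to 0.545 CPM) in KO libraries, highest in T10. Some of the alternative fits of KO against WT called it. These were under stigmasterol without KO animal T15, and averaged with no filter on low counts or without T110, T25, T83 or T15. Nothing is read from these calls.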
